A study of Sus scrofa with 36 samples.

Results

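Thyroid hormone drives the maturation of the cerebellum after birth. The prohormone T4 and the active hormone T3 enter brain cells through membrane transporters, DIO2 converts T4 to T3, and DIO3 inactivates both. T3 binds the nuclear receptors THRA and THRB, which repress target genes through corepressors when no hormone is bound and activate them when it is. The 9 genes described here are the receptors THRA and THRB, the corepressor NCOR1, the deiodinases DIO2 and DIO3, the transporters SLC16A10 and SLCO1C1, and the hormone-responsive genes KLF9 and HR. They were chosen by name for their roles. All 9 were found among the 31907 gene identifiers counted, 8 had a count in at least 1 library, and 7 passed a filter on low counts that 15356 genes passed.

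RNA was sequenced from the cerebellum of 36 term-born crossbred piglets of both sexes in a design with 4 groups of 9. From 3 days of age the piglets were fed formula for 3 weeks, with fat from vegetable oil (VEG) or from bovine milk (MILK). Within each diet, piglets had a normal birth weight (NBW) or were intrauterine growth restricted (IUGR), and they were killed on study day 21 or 22. All received the antiparasitic toltrazuril and were housed singly and formula-fed, so no group stands for sow-reared piglets, and IUGR was a selection by low weight and head shape on a farm and not an induced restriction. Litters were shared among piglets but are not in the labels, so litter could not be a term in any test.

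Values are given for 33 libraries (VEG-NBW 8, VEG-IUGR 8, MILK-NBW 8, MILK-IUGR 9). In these, 15516541 to 23027502 read pairs were counted on genes (median 18025540), and 26.73% to 30.48% of read pairs were not assigned to a gene. Piglets 202 (VEG-NBW), 210 (VEG-IUGR) and 213 (MILK-NBW) were left out because this share, 31.52% to 64.31%, stood apart in their groups. In the library of piglet 210, THRB, DIO2 and KLF9 had 0 counts, whereas NCOR1 had 1804. Levels are counts scaled to a common library size (CPM) after trimmed-mean normalisation. They are not divided by transcript length, so they were compared between piglets and not between genes. In whole tissue, fewer cells of a type and less RNA per cell cannot be told apart.

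The tissue carried the markers of cerebellum. The summed level of 5 granule neuron markers was 2329 to 3500 CPM, and that of 5 Purkinje cell markers was 2229 to 4823 CPM. That of 4 forebrain markers was 4.78 to 26.1 CPM. Its medians were 17.8 CPM in VEG-NBW, 17.1 in VEG-IUGR, 9.46 in MILK-NBW and 13.9 in MILK-IUGR.

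None of the 7 testable genes passed the test for the fat source, the birth weight class or their interaction. The same held for the 4 contrasts between groups and for sex. In edgeR's quasi-likelihood test with sex as a covariate and Benjamini-Hochberg adjustment over all genes, 0 of the 7 passed an adjusted p of 0.05 in any of these 8 comparisons. The background was 0.0% of 15356 genes in the first 7 comparisons and 0.163% for sex. At an unadjusted p under 0.05, 1 of 56 gene-by-comparison tests passed, DIO2 for birth weight. Of all genes tested, 2.19% met that threshold for birth weight, 4.26% for diet and 6.09% for the interaction. It was met by 6.67% for MILK-NBW against VEG-NBW, 3.9% for MILK-IUGR against VEG-IUGR, 2.29% for VEG-IUGR against VEG-NBW, 6.24% for MILK-IUGR against MILK-NBW and 2.94% for sex.

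**Figure D1:**
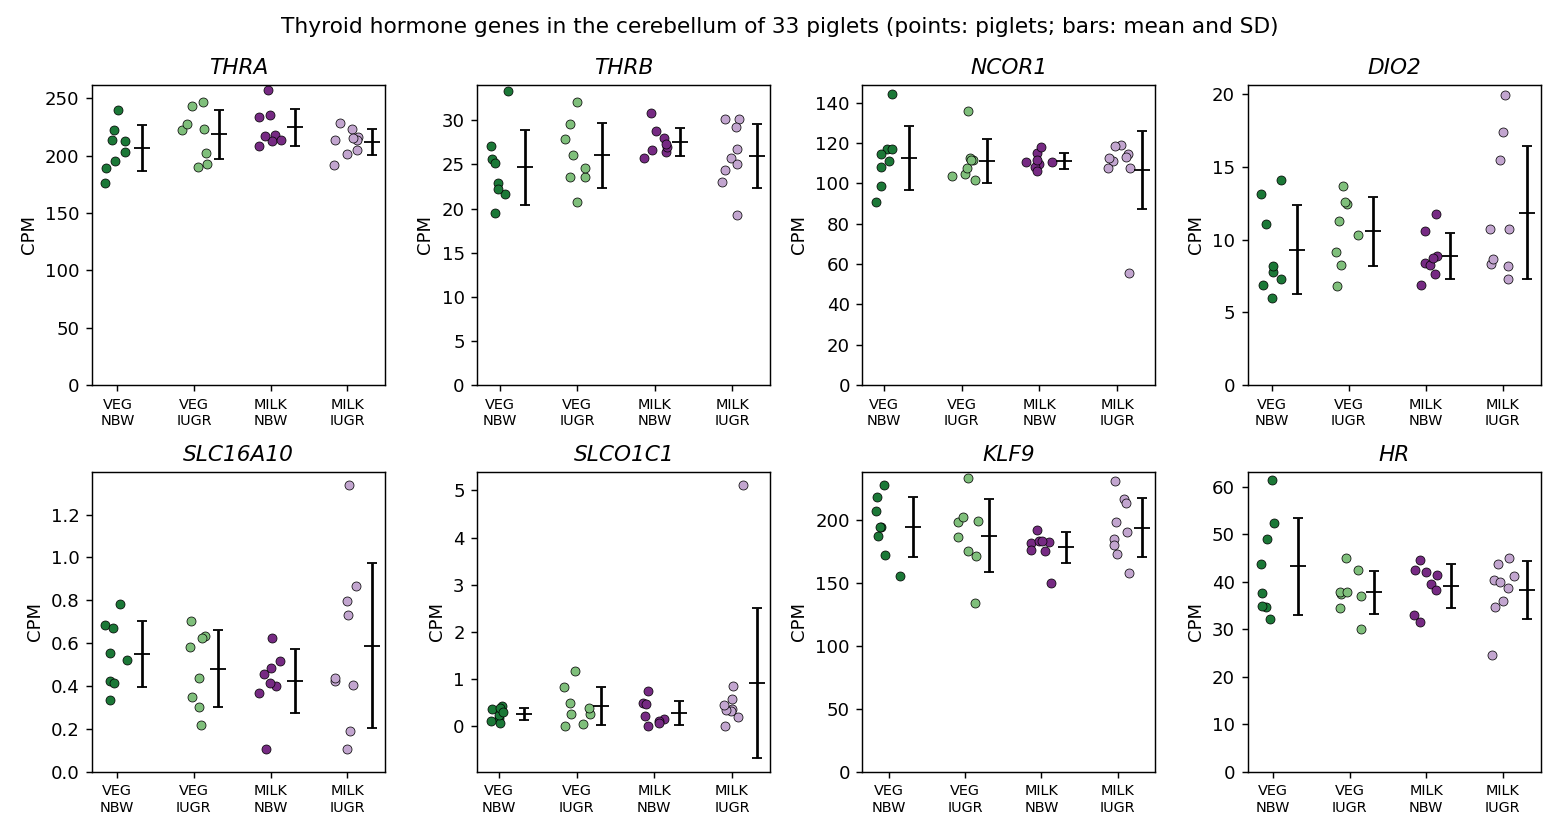
Level of 8 thyroid hormone genes (CPM) in each of 33 piglets, by diet and birth weight group; points are piglets, and the horizontal mark and bar beside them are the group mean and its SD. The 4 groups overlap for every gene, and piglet 231 stands alone in the SLCO1C1 panel at 5.11 CPM.

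THRA encodes the receptor isoform that predominates in brain. It lies at chr12:22270506-22296684 (Sscrofa11.1, RefSeq gene span), where 3626 bases overlap NR1D1, and the strand setting of the counting is not given in the sources used here, so reads of both genes may mix. Its lowest, median and highest levels were 176, 208 and 240 CPM in VEG-NBW and 190, 223 and 247 CPM in VEG-IUGR. They were 208, 218 and 258 CPM in MILK-NBW and 192, 214 and 229 CPM in MILK-IUGR. The groups overlapped, and THRA was among the steadier genes, with a coefficient of variation over the 33 piglets of 8.37% against a median of 14.3% over all tested genes.

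THRA was 1.03-fold as high with MILK as with VEG (95% interval 0.963 to 1.09, edgeR). The log2 difference was 0.12 ± 0.06 (SE) for MILK-NBW against VEG-NBW (adjusted p = 0.738). Against this, the log2 difference for MILK-IUGR against VEG-IUGR was -0.04 ± 0.06. The interaction, -0.17 ± 0.09 on the log2 scale, did not pass (adjusted p = 0.784, edgeR).

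THRB encodes the receptor isoform that rises later in brain development. It spans chr13:10900716-11360587 and overlaps no other listed gene. The lowest, median and highest levels of THRB were 19.5, 24.0 and 33.3 CPM in VEG-NBW and 20.8, 25.3 and 32.1 CPM in VEG-IUGR. They were 25.7, 27.1 and 30.8 CPM in MILK-NBW and 19.3, 25.7 and 30.1 CPM in MILK-IUGR. MILK-NBW held the narrowest range, and it lay within that of VEG-NBW. The log2 difference between these groups was 0.16 ± 0.10 (adjusted p = 0.766, edgeR), and that for diet over all piglets was 0.07 ± 0.07.

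NCOR1 encodes the corepressor that unliganded receptors recruit. It spans chr12:59256868-59392564, with 29 bases shared with PIGL. For NCOR1 the lowest, median and highest levels were 90.7, 113 and 144 CPM in VEG-NBW and 102, 110 and 136 CPM in VEG-IUGR. They were 106, 110 and 118 CPM in MILK-NBW and 55.7, 113 and 119 CPM in MILK-IUGR. The medians were within a few CPM of each other, and the 55.7 CPM of piglet 207 lay far below the next lowest level in its group, 107 CPM. The log2 difference was -0.04 ± 0.07 for diet and -0.04 ± 0.07 for birth weight, and without piglet 207 the diet difference was 0.0035.

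Piglet 207 was also the lowest of the 33 for the acetyltransferases CREBBP (42.3 CPM, next 78.2) and EP300 (46.2 CPM, next 75.6), which are coactivators of nuclear receptors. It was lowest for the receptor partner RXRA as well, at 19.9 CPM with the next at 25.7. Its share of unassigned read pairs was 27.36%, the lowest of its group. Libraries were retained on this share, so it is no separate check of this library.

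DIO2, the enzyme that makes T3 locally and is known from astrocytes, lies at chr7:103096414-103110749. Its lowest, median and highest levels were 5.96, 7.96 and 14.1 CPM in VEG-NBW and 6.79, 10.8 and 13.7 CPM in VEG-IUGR. They were 6.89, 8.59 and 11.8 CPM in MILK-NBW and 7.30, 10.7 and 19.9 CPM in MILK-IUGR. The medians of both IUGR groups were above those of both NBW groups, and the ranges overlapped. The 3 highest levels of all 33 piglets, 19.9, 17.4 and 15.5 CPM in piglets 207, 225 and 206, were in MILK-IUGR.

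DIO2 was 1.22-fold as high in IUGR as in NBW piglets (95% interval 1.01 to 1.48). The log2 difference was 0.29 ± 0.14 (SE), with an unadjusted p = 0.0398 (n = 17 and n = 16) and an adjusted p of 0.9996 in edgeR, so it did not pass. Without piglet 207 the log2 difference was 0.23 ± 0.13 (unadjusted p = 0.0780, n = 16 in each class), and over all 36 libraries it was 0.10 ± 0.24 (unadjusted p = 0.699, n = 18 in each class). Between MILK-IUGR and MILK-NBW the log2 difference was 0.38 ± 0.19 (adjusted p = 0.771), and 0.28 ± 0.19 without piglet 207. Between VEG-IUGR and VEG-NBW it was 0.19 ± 0.20, and the interaction was 0.19 ± 0.27 (adjusted p = 0.897). The difference for diet was 0.05 ± 0.14.

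DIO2 varied widely among piglets. The highest level was 3.34 times the lowest, and its coefficient of variation, 31.8%, exceeded that of 83.7% of tested genes. With a mean of 186 read pairs per library, counting error made up 5.30% of its variance.

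DIO3, which inactivates T4 and T3, had 0 counts in all 36 libraries. A count of 0 allows up to 3 counts per library, or 0.130 to 0.193 CPM in the retained libraries, for counting error only. RefSeq places the gene on a sequence not assigned to a chromosome. No difference in DIO3 was detectable at this depth.

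SLC16A10, a transporter of aromatic amino acids and of T3 and T4, spans chr1:76998359-77139534 and shares 6128 bases with LOC110260579. It was near the detection limit. Its lowest, median and highest counts were 6, 10 and 13 read pairs in VEG-NBW and 4, 9 and 15 in VEG-IUGR. They were 2, 7.5 and 11 in MILK-NBW and 2, 10 and 22 in MILK-IUGR, so all groups overlapped. Counting error made up 48.6% of the variance between piglets. The log2 difference was -0.03 ± 0.24 for diet and 0.15 ± 0.24 for birth weight, and the interaction was 0.68 ± 0.48 (adjusted p = 0.809, edgeR). The 95% interval of the interaction ran from -0.30 to 1.65.

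SLCO1C1, a T4 transporter of brain capillaries and choroid plexus, lies at chr5:52234396-52315311 and did not pass the filter. Its lowest, median and highest counts were 1, 5 and 8 read pairs in VEG-NBW and 0, 6 and 25 in VEG-IUGR. They were 0, 3.5 and 13 in MILK-NBW and 0, 7 and 84 in MILK-IUGR. The 84 read pairs (5.11 CPM) were in piglet 231, and no other piglet of that group was above 0.854 CPM. In an exact two-sided permutation test on log2 CPM, MILK-IUGR exceeded MILK-NBW by 0.82 (p = 0.212), and by 0.42 without piglet 231 (p = 0.393).

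When edgeR was run with no filter on low counts, the log2 difference in SLCO1C1 for birth weight was 1.24 ± 0.45 (unadjusted p = 0.00849, n = 17 and n = 16, adjusted p = 0.952). An unadjusted p under 0.05 was reached by 4.08% of genes in that comparison. That for MILK-IUGR against MILK-NBW was 1.85 ± 0.60 (adjusted p = 0.774), with 6.1% of genes under an unadjusted p of 0.05, and that for males against females was 1.49 ± 0.45 (adjusted p = 0.738), with 4.47%. None passed the adjustment, and all 3 were smaller without piglet 231, a male. Without it they were 0.70 (adjusted p = 0.940), 0.80 (adjusted p = 0.787) and 0.87 (adjusted p = 0.976).

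Piglet 231 also had the highest levels of 3 choroid plexus genes, the T4-binding protein TTR (1522 CPM, median 16.6), KCNJ13 (44.3 CPM, median 5.42) and CLIC6 (36.4 CPM, median 0.454). The second highest TTR, 276 CPM, was in piglet 211, which also had the second highest SLCO1C1 at 1.17 CPM. Below these piglets, some differed in their rank for the 2 genes, and the relation over all the others was not tested. Piglets 228 and 200, with 177 and 149 CPM of TTR, had 0.309 and 0.169 CPM of SLCO1C1, under its median of 0.318 CPM. Piglets 207 and 227, with 0.854 and 0.834 CPM of SLCO1C1, had 48.8 and 29.9 CPM of TTR, both above its median. The summed level of these 3 choroid plexus genes ranged from 7.92 to 189 CPM in VEG-NBW, 7.85 to 294 in VEG-IUGR, 4.18 to 39.3 in MILK-NBW and 6.33 to 1603 in MILK-IUGR, with none at 0 in every library. The part of choroid plexus tissue in the SLCO1C1 values was not tested.

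**Figure D2:**
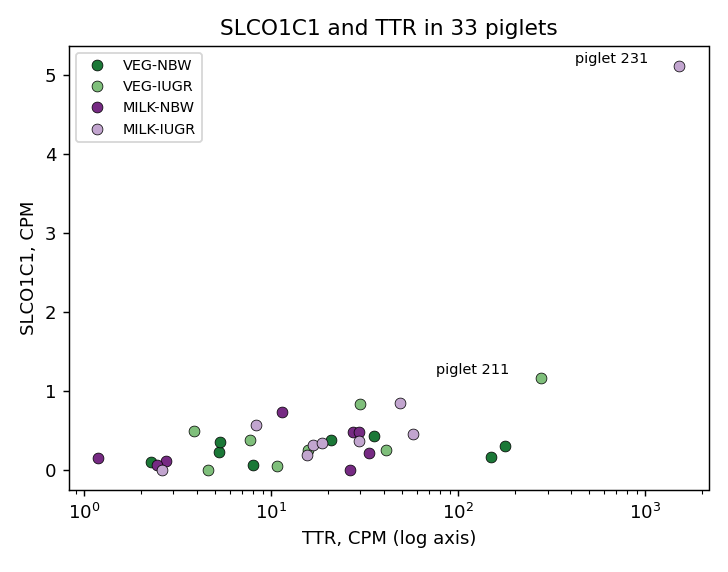
SLCO1C1 (CPM) against the choroid plexus gene TTR (CPM, log axis) in 33 piglets, 1 point each, coloured by group. Piglets 231 and 211 are highest for both genes, at 5.11 and 1.17 CPM of SLCO1C1, and the other piglets are below 1 CPM of SLCO1C1.

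KLF9, a transcription factor that T3 induces in neurons, spans chr1:223723613-223747661. For KLF9 the lowest, median and highest levels were 155, 194 and 228 CPM in VEG-NBW and 134, 192 and 233 CPM in VEG-IUGR. They were 150.2, 182 and 192 CPM in MILK-NBW and 158, 190.2 and 231 CPM in MILK-IUGR. MILK-NBW had the lowest median and the lowest maximum, and its range lay inside that of VEG-IUGR. The log2 difference for MILK-NBW against VEG-NBW was -0.12 ± 0.09 (adjusted p = 0.809, edgeR). For diet over all piglets it was -0.04 ± 0.06, and for birth weight 0.03 ± 0.06.

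HR encodes hairless, a corepressor that is itself induced by T3 in the developing brain. It lies at chr14:6386900-6404968. Its lowest, median and highest levels were 32.2, 40.8 and 61.4 CPM in VEG-NBW and 30.0, 37.6 and 45.0 CPM in VEG-IUGR. They were 31.6, 40.4 and 44.5 CPM in MILK-NBW and 24.6, 40.0 and 45.0 CPM in MILK-IUGR. VEG-NBW reached the highest levels, and all groups overlapped. The log2 difference was -0.20 ± 0.12 for VEG-IUGR against VEG-NBW (adjusted p = 0.9996, edgeR). It was -0.12 ± 0.08 for birth weight and -0.06 ± 0.08 for diet.

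**Figure D3:**
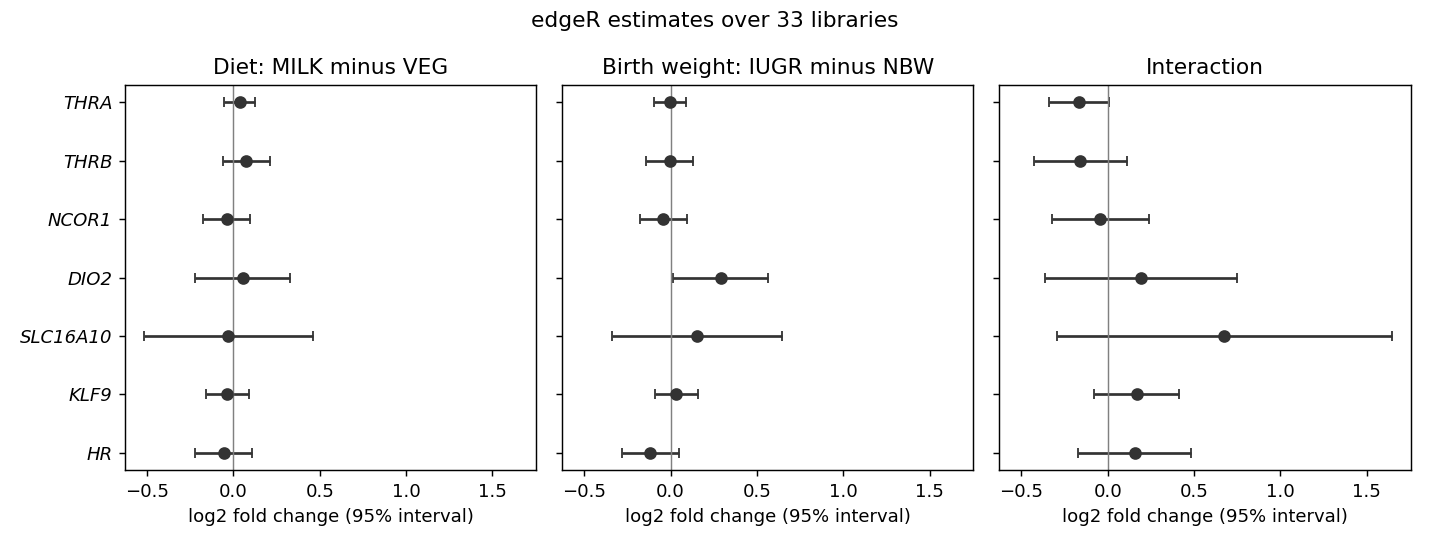
Log2 fold change (x axis) of 7 thyroid hormone genes for diet, birth weight and their interaction, from edgeR over 33 libraries; points are estimates and bars 95% intervals. The only interval of the 21 that leaves out 0 is that of DIO2 for birth weight, 0.01 to 0.57, and SLC16A10 has the widest intervals.

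For THRA, THRB, NCOR1, KLF9 and HR, every 95% interval for diet and for birth weight lay between 0.823-fold and 1.16-fold. The contrasts between groups and the interaction were less precise, with intervals for these 5 genes between 0.742-fold and 1.40-fold, both ends being those of HR. In exact two-sided permutation tests of the 4 contrasts between groups for 8 genes, 0 of 32 had p under 0.05, and the smallest was 0.0615, for THRA in MILK-NBW against VEG-NBW. The ranges of the 2 groups overlapped in all 32. Groups did not overlap for 0.013% of tested genes in MILK-NBW against VEG-NBW, 0.00651% in MILK-IUGR against MILK-NBW and 0.0% in the other 2 contrasts.

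Piglets differed from each other in ways that several of the 7 genes shared. Of the 21 pairs of these genes, 4 were correlated over the 33 piglets by Pearson's r at an adjusted p under 0.05 (permutation tests of 100000 draws, Benjamini-Hochberg over the 21 pairs). How often pairs drawn from all tested genes pass was not measured, so this count cannot be called particular to these genes. KLF9 was in 3 of the 4. It rose with DIO2 (r = 0.52, p = 0.00162, adjusted p = 0.0170, Spearman's rho = 0.47, p = 0.00693, adjusted p = 0.0485) and r was 0.43 without the 2 piglets farthest from the median of DIO2. KLF9 was lower where THRB was higher (r = -0.50, p = 0.0032, adjusted p = 0.0224, rho = -0.51, p = 0.00275, adjusted p = 0.0485, and r = -0.47 without the 2 farthest piglets).

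KLF9 was also lower where THRA was higher (r = -0.46, p = 0.00751, permutation, adjusted p = 0.0394), but rho, -0.42, did not pass (p = 0.0171, adjusted p = 0.0738). Without the 2 farthest piglets r was -0.44. By rho alone, THRA rose with NCOR1 (0.47, p = 0.00555, permutation, adjusted p = 0.0485, r = 0.31). HR rose with NCOR1 (r = 0.59, p = 0.00113, adjusted p = 0.0170, and r = 0.50 without the 2 farthest piglets), whereas rho was 0.41 (p = 0.0176, adjusted p = 0.0738). Piglet 207 was the lowest for both, and without it r was 0.38 (adjusted p = 0.156).

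With values centred on group and sex, r was 0.53 for DIO2 and KLF9 (adjusted p = 0.0186, permutation) and 0.60 for HR and NCOR1 (adjusted p = 0.00882). It was -0.46 for THRB and KLF9 (adjusted p = 0.0523) and -0.41 for THRA and KLF9 (adjusted p = 0.0993). Without the 2 farthest piglets these centred values of r were 0.46, 0.50, -0.28 and -0.40 in the same order. DIO2 and KLF9 was the only pair that passed by Pearson's r in all 6 settings run, although its rho did not pass without piglet 207 (0.43, adjusted p = 0.116, permutation). Over all 36 libraries, piglet 210 had 0 counts of KLF9, DIO2 and THRB. There r for DIO2 and KLF9 was 0.94, and r for THRB and KLF9 turned to 0.98. The 6 settings share most of their piglets, so they are not separate support.

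**Figure D4:**
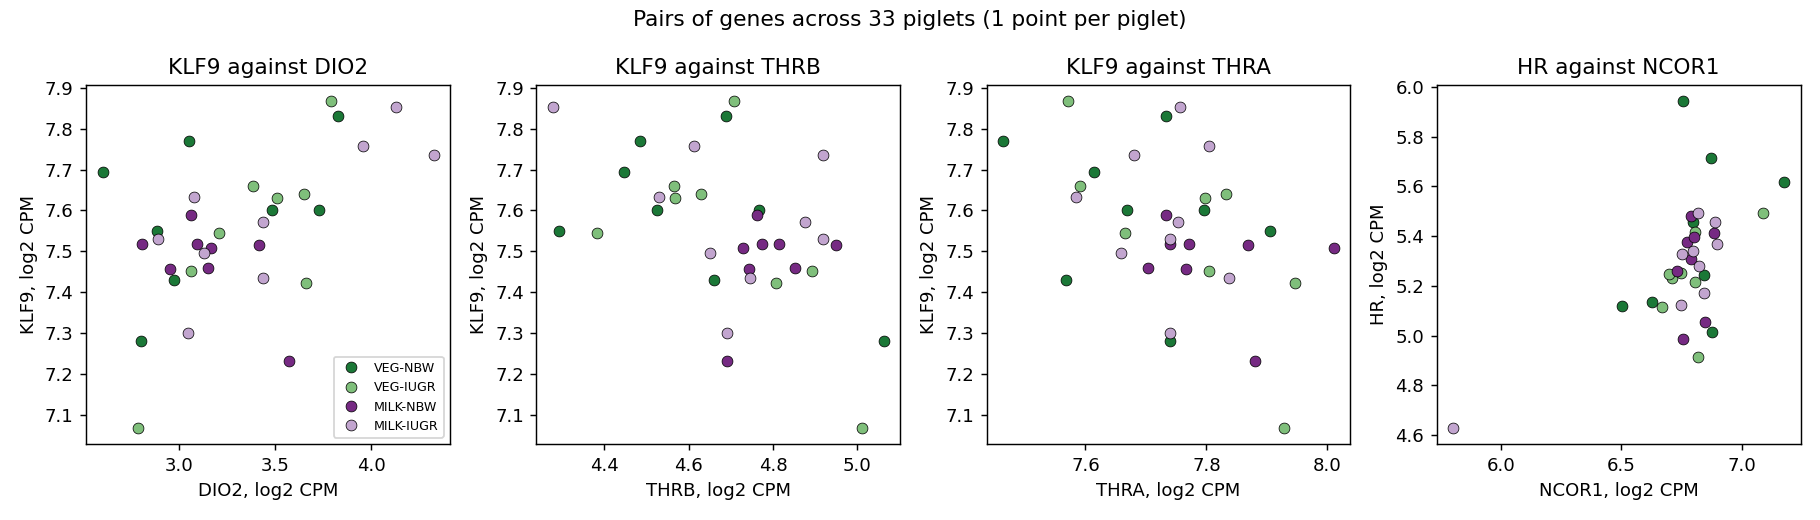
Log2 CPM of 4 pairs of thyroid hormone genes in 33 piglets, 1 point each, coloured by group: KLF9 against DIO2, THRB and THRA, and HR against NCOR1. KLF9 rises with DIO2 (r = 0.52) and falls with THRB (r = -0.50), and in the panel of HR and NCOR1 piglet 207 lies apart at the lower left.

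KLF9 and THRB followed the summed levels of glial and granule neuron markers in opposite directions. Each of the 7 genes was set against the summed level of each of 9 marker lists over the 33 piglets, 63 relations in all, a comparison added after the values were seen. The most abundant markers weigh most in such a sum, and relations with single markers were not tested. In the astrocyte and Bergmann glia list the median was 4758 CPM for GFAP, 1153 for AQP4 and 1141 for SLC1A3. It was 141 CPM for SLC1A2, 56.8 for GDF10 and 3.66 for ALDH1L1. By Pearson's r, 6 passed an adjusted p under 0.05 and all were of KLF9 or THRB (permutation tests of 100000 draws, Benjamini-Hochberg over the 63). By Spearman's rho 7 passed, the same 6 and THRB with oligodendrocytes. The share of all tested genes that follow these sums as strongly was not measured. Following them therefore cannot be called particular to KLF9 and THRB.

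KLF9 was lower in piglets with more astrocyte and Bergmann glia marker RNA (r = -0.73, rho = -0.74). The permutation p for both was 1e-05, the smallest these draws can give, with an adjusted p of 0.00063, and r was -0.68 without the 2 farthest piglets. It was lower with more oligodendrocyte marker RNA (r = -0.63, p = 0.0001, adjusted p = 0.00189, rho = -0.67, p = 8e-05, adjusted p = 0.00189, permutation, r = -0.61 without the 2 farthest). It was higher with more granule neuron marker RNA (r = 0.60, p = 0.00023, adjusted p = 0.0029, rho = 0.56, p = 0.00085, adjusted p = 0.0107, permutation, r = 0.51 without the 2 farthest).

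THRB was higher in piglets with more astrocyte and Bergmann glia marker RNA (r = 0.62, p = 0.00012, adjusted p = 0.00189, rho = 0.63, p = 0.00014, adjusted p = 0.0022, permutation, r = 0.61 without the 2 farthest). It was higher with more endothelial marker RNA (r = 0.69, p = 2e-05, adjusted p = 0.00063, rho = 0.64, p = 9e-05, adjusted p = 0.00189, permutation, r = 0.52 without the 2 farthest). It was lower with more granule neuron marker RNA (r = -0.58, p = 0.00043, adjusted p = 0.0045, rho = -0.51, p = 0.0024, adjusted p = 0.0252, permutation, r = -0.51 without the 2 farthest). These 6 relations also passed by Pearson's r with values centred on group and sex, without piglet 207 and without piglet 227.

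**Figure D5:**
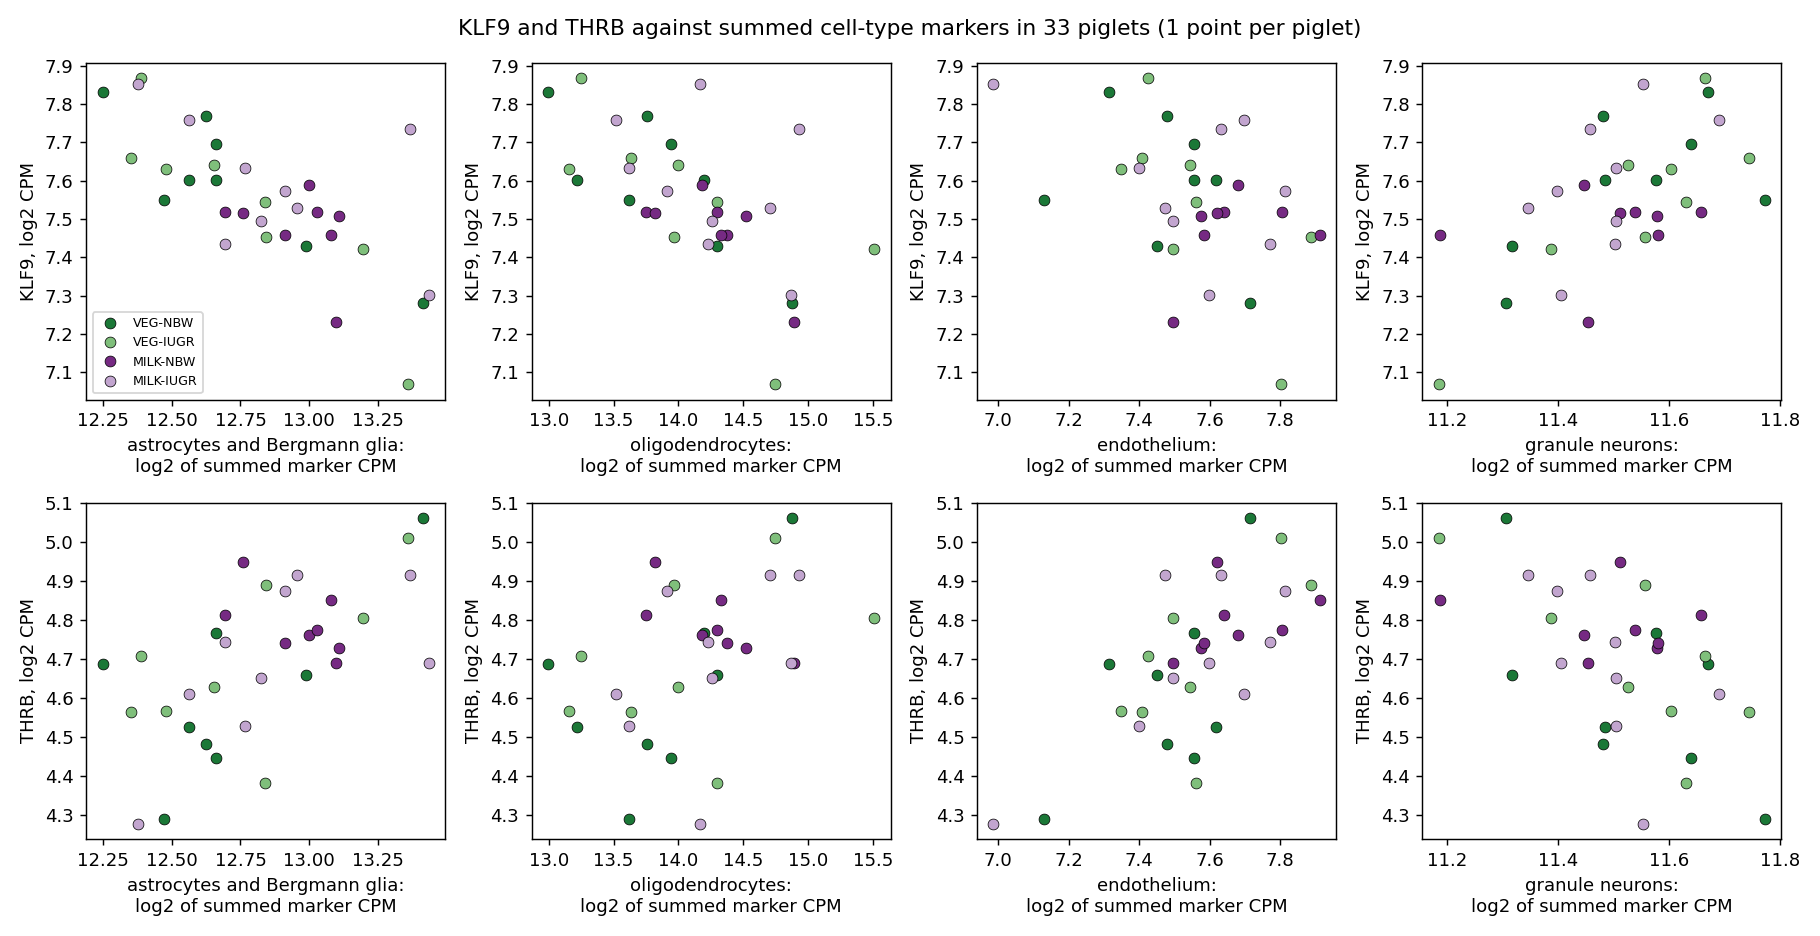
Log2 CPM of KLF9 (top) and THRB (bottom) against the log2 of the summed CPM of astrocyte and Bergmann glia, oligodendrocyte, endothelial and granule neuron markers in 33 piglets, 1 point each, coloured by group. KLF9 falls with both glial sums (r = -0.73 and -0.63) and rises with granule neuron markers (r = 0.60), and THRB rises with astrocyte (r = 0.62) and endothelial markers (r = 0.69) and falls with granule neuron markers (r = -0.58).

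The marker sums varied within every group, the astrocyte and Bergmann glia sum least in MILK-NBW. The oligodendrocyte sum of 5 genes was 8164 to 30026 CPM in VEG-NBW, 9110 to 46651 in VEG-IUGR, 13801 to 30315 in MILK-NBW and 11707 to 31139 in MILK-IUGR. The astrocyte and Bergmann glia sum of 6 genes was 4866 to 10924, 5222 to 10517, 6618 to 8843 and 5322 to 11085 CPM in the same order. Its medians were 6394, 6885, 8268 and 7251 CPM in that order. Those of the oligodendrocyte sum were 14787, 16168, 20354 and 19203 CPM. Differences between groups in these sums were not tested. The endothelial sum of 4 measured genes was 127 to 241 CPM over all piglets, and no marker of these lists was at 0 in every library. MBP, an oligodendrocyte marker here, is also a known thyroid hormone target. The part of the tissue's makeup in the correlation of THRB with KLF9 was not tested.

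The relation of DIO2 with the astrocyte and Bergmann glia sum did not pass (r = -0.32, rho = -0.38, p = 0.0699 for r, permutation, adjusted p = 0.191). Without piglet 207, which had the highest DIO2 and a sum of 10571 CPM, r was -0.53 and rho -0.49 (adjusted p = 0.0156 for r, permutation). THRA, HR, NCOR1 and SLC16A10 had no relation with any of the 9 lists that passed.

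Among 12515 genes with a symbol, those most like each of the 7 genes by Spearman's rho over the 33 libraries are given as a description. The genes most like THRA were GPAT4 (0.80), an enzyme of glycerolipid synthesis, and ADD1 (0.78), a membrane skeleton protein. Those most like THRB were CYB5B (0.78), a mitochondrial cytochrome, and PCCB (0.77), a subunit of propionyl-CoA carboxylase. For DIO2 they were FKBP5 (0.70), a co-chaperone of steroid receptors, and WNT9A (0.69), a WNT ligand. KLF9 was most like TAB3 (0.82), an adaptor of the kinase TAK1, and HIPK3 (0.81), a nuclear kinase. NCOR1 was most like SAFB (0.82), a chromatin scaffold protein, and FAM193A (0.79). HR was most like PHF2 (0.73), a histone demethylase, and BCR (0.67), a regulator of small GTPases. SLC16A10 was most like ALKBH1 (0.67), a nucleic acid demethylase, and TRMT13 (0.65), a tRNA methyltransferase. The libraries share depth and tissue makeup, so these values describe patterns over piglets and nothing more.

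A wider list of 35 other genes of the pathway held transporters and binding proteins, deiodination cofactors, RXR partners, coregulators and genes known to respond to thyroid hormone in brain. Of these, 33 were in the files and 32 passed the filter, DIO1 being the one below it. Of the 32, 0 passed an adjusted p of 0.05 in any of the 8 comparisons. The list's median log2 difference was 0.02 for diet and 0.02 for birth weight, beside -0.0035 and -0.00064 over all tested genes.

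At an unadjusted p under 0.05, 0 of the 32 passed for diet, birth weight or sex, and 3 for the interaction. For the contrasts between groups, 2 passed for MILK-NBW against VEG-NBW, 1 for MILK-IUGR against VEG-IUGR, 1 for VEG-IUGR against VEG-NBW and 2 for MILK-IUGR against MILK-NBW. The percentages of all genes at that threshold are those given with the 7 genes above. BDNF, a neurotrophin, had a log2 difference of -0.43 ± 0.21 for MILK-NBW against VEG-NBW (adjusted p = 0.738, edgeR) and an interaction of 0.70 ± 0.29 (adjusted p = 0.784). TTR had an interaction of 4.54 ± 1.54 (adjusted p = 0.784), with -2.60 ± 1.17 for MILK-NBW against VEG-NBW and 3.23 ± 1.10 for MILK-IUGR against MILK-NBW, the group of piglet 231. With no filter on low counts, its interaction was 4.54 with and 0.69 ± 1.42 without that piglet. GPS2, a subunit of the NCOR complex, had an interaction of -0.18 ± 0.09 (adjusted p = 0.784) and a log2 difference of -0.15 ± 0.06 for MILK-IUGR against VEG-IUGR (adjusted p = 0.996). RXRA, the heterodimer partner of the receptors, had -0.22 ± 0.10 for MILK-IUGR against MILK-NBW (adjusted p = 0.771), the group of piglet 207.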

How the data were processed

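Per the labels, total RNA of 36 cerebella was sequenced as paired-end reads of 150 bases. The authors deposited raw counts per Ensembl pig gene for each piglet, as htseq-count output. The submitters' processing notes name Trim Galore, HISAT2, HTSeq, DESeq2 and the build Sscrofa11.1. The annotation release and strand setting are not given in the sources used here. Of 31907 identifiers, 15029 matched a symbol. Positions are RefSeq gene spans of Sscrofa11.1. No sequence was printed.

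The study's methods exclude 3 samples for RNA integrity but do not say which. Here the 3 whose unassigned share was a high outlier in its group by Dixon's rule were left out, so the set may differ from the study's. The 9 genes, the lists and this set were chosen with earlier results of these data known. Each piglet is 1 library. The test was edgeR's quasi-likelihood F test (version 4.0.16, R 4.3.3), after TMM scaling and a filterByExpr minimum count of 10. Every model had sex as a term. Main effects came from a model without interaction, the other contrasts from a model of the 4 group means. Levels on the log2 scale had a prior count of 2. Alternatives used DESeq2 1.42.0 and limma 3.58.1 and are described with the limits. The edgeR, DESeq2 and limma fits and the exact test were run on simulated data, with outcomes not reported here. The permutation tests of gene pairs and marker sums were not run on simulated data. The named genes were the 9 members, pathway genes at an unadjusted p under 0.05 (some genes of the lists are not reported here), and for each tested member the 2 genes of highest rho. The coregulators and choroid plexus genes named with piglets 207 and 231 were chosen after their values were seen.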

Additional observations from a re-analysis of the deposited data

Results flagged for a closer look

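Of 32 sets of 1 gene in 1 group, 5 held a piglet whose level stood apart by Dixon's test, and for normally distributed values chance flags about 1 in 20. The test used CPM and not log2 values, and NCOR1 and HR of piglet 207 come from the same library. How often it flags a piglet over all tested genes was not measured, so 5 of 32 is not shown to be an excess. SLCO1C1 was 5.11 CPM in piglet 231 of MILK-IUGR, against 0 to 0.854 CPM in the other piglets of the group. NCOR1 was 55.73 CPM in piglet 207 of MILK-IUGR, against 107 to 119 CPM, and HR in the same piglet was 24.63 CPM, against 34.7 to 45.0 CPM. NCOR1 was 136.1 CPM in piglet 209 of VEG-IUGR, against 102 to 113 CPM. KLF9 was 150.2 CPM in piglet 212 of MILK-NBW, against 176 to 192 CPM, and this piglet had the highest oligodendrocyte marker sum of its group, 30315 CPM.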

How the results depend on the processing

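The 11 alternative fits tested 6 to 8 of the 9 genes, and none of those tested passed an adjusted p of 0.05. DIO3 was tested in no fit, and SLCO1C1 in the DESeq2 and unfiltered fits alone. The fits used all 36 libraries, no piglet 207, other scaling, filters or tools, no sex term, or the unassigned share as a covariate. The fit with no filter and without piglet 231, the pairs without piglet 207 or centred also on the unassigned share, the exact tests without piglet 231 or 207, and the alternatives for the marker sums were chosen after seeing the data. No paired analysis was possible because each piglet is in 1 group and no number in the labels pairs piglets.

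Over all genes, the calls for MILK-IUGR against MILK-NBW went from 0 to 1 without piglet 207, with DESeq2's size factors in edgeR, in DESeq2 or edgeR without sex, with at least 10 counts in every library and in limma voom, and to 2 in DESeq2 with sex. Those for MILK-NBW against VEG-NBW went from 0 to 1 without piglet 207, in DESeq2 without sex and in limma voom, and to 2 in DESeq2 with sex, which also gave 2 for the interaction. Sex gave 7 in place of 25 with at least 10 counts in every library. Of the 21 pairs of genes, 13 passed over all 36 libraries, and 2 without piglet 207 or with values centred on group and sex, with or without the unassigned share, in place of 4.

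Some small log2 differences changed sign. Over all 36 libraries these were KLF9 for birth weight (-0.0732), diet (0.0240) and sex (0.0322), SLC16A10 for diet (0.0482), THRB for the interaction (0.0638) and THRA for sex (0.0804). Without piglet 207 these were THRA for birth weight (0.0025), DIO2 for diet (-0.0078) and NCOR1 for diet (0.0035) and the interaction (0.0388). In limma voom these were SLC16A10 for birth weight (-0.0248) and NCOR1 for diet (0.0184). With the unassigned share as a covariate these were NCOR1 (0.0230), THRA (0.0023) and THRB (-0.0113) for sex. With no filter and without piglet 231, THRA for birth weight was 0.00035. The causes were not tested. Low counts limit the precision for SLC16A10 and SLCO1C1. For DIO3, whether depth, annotation or mapping gave 0 counts was not tested. Litter could not be used.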
